A study of Mus musculus with 8 samples.

Results

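The genes of heme breakdown and iron handling were followed through both RNA sequencing experiments of the series. The 10 genes were the heme oxygenases Hmox1 and Hmox2, the biliverdin reductases Blvra and Blvrb, the ferritin subunits Fth1 and Ftl1, the iron exporter Slc40a1, the heme and porphyrin transporters Slc48a1 and Abcb6, and the transferrin receptor Tfrc. They were found by symbol, and all 10 were present among the 18645 genes of the HSC table and the 17408 genes of the BMDM table. In the first experiment, activated primary hepatic stellate cells (HSCs) of C57BL/6 mice, isolated from liver on a density gradient, were exposed for 12 h to vehicle (labelled untreated) or to 0.03 µM auranofin, a gold-containing anti-rheumatic drug. In the second, bone marrow-derived macrophages (BMDM) of C57BL/6 mice all received LPS at 100 ng/mL and ATP at 1 mM, with vehicle or with auranofin for 1 h, at 0.1 µM by the sample labels and 0.3 µM by the study's text. Each of the 4 groups had 2 libraries. Nothing in the labels says whether replicates came from separate cultures or animals, so p-values measure the spread between these libraries, which may be technical.

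Heme oxygenase opens the heme ring and releases iron, carbon monoxide and biliverdin, which biliverdin reductase then turns into bilirubin. The freed iron is stored in the ferritin shell or leaves the cell through ferroportin, the product of Slc40a1, while transferrin receptor brings iron in. Macrophages of liver and spleen are known for this route, because they recycle the iron of aged red cells. Several of these transcripts are also controlled after transcription. Iron-regulatory proteins bind stem-loops called iron-responsive elements (IREs), which block translation when they lie in the 5′ UTR and protect the transcript when they lie in the 3′ UTR.

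The IRE sites are shown first because they divide the genes into those whose translation and those whose transcript is known to be under iron control. In GENCODE M21 transcripts (GRCm38), a CAGTGN loop closed by 5 base pairs (G with T counted as a pair) and preceded by the unpaired C of the stem was found in Fth1, Ftl1, Slc40a1 and Tfrc. Such a match was present in 565 of 58797 protein-coding transcripts (0.961%). Fth1, Ftl1 and Slc40a1 each held 1 match in the 5′ UTR, and Tfrc held 4 in the 3′ UTR. The transcripts of the other 6 genes held none. The loop is in capitals, and each site is written 5′ to 3′ on the strand of the gene.
Fth1, 5′ UTR, chr19:9982732-9982760, plus strand: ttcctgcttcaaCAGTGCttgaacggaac
Ftl1, 5′ UTR, chr7:45459779-45459807, minus strand: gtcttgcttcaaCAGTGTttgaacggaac
Tfrc, 3′ UTR, chr16:32631219-32631247, plus strand: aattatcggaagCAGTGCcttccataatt
Tfrc, 3′ UTR, chr16:32631598-32631626, plus strand: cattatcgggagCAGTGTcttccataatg
Tfrc, 3′ UTR, chr16:32631663-32631691, plus strand: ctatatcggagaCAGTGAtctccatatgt
Tfrc, 3′ UTR, chr16:32631710-32631738, plus strand: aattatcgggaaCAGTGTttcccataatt

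Promoters are shown for the biliverdin reductases, a pair of which one gene passed the test in HSCs and the other did not. Windows at RefSeq start sites (GRCm38.p6) were searched on both strands for the core of the antioxidant response element, TGACNNNGC. This is the site of NRF2 with small MAF proteins. Each window began 250 bases upstream of a start site, and a gene counted if any of its windows held the motif. The sequences printed are the 250 bases before 1 start site. The core was present for 14.0% of 27025 genes. Of the 7 genes with a window, 1 held it, a share like that of all genes. It was Blvra, 49 bases before the start on the minus strand, shown in capitals as read on the plus strand.
Blvra, chr2:127070407-127070656, plus strand: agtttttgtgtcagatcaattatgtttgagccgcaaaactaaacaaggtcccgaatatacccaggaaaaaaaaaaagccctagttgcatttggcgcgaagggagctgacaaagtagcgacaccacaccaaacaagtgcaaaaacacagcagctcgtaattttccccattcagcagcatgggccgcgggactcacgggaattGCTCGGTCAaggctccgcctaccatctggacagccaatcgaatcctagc
Blvrb, chr7:27447728-27447977, plus strand: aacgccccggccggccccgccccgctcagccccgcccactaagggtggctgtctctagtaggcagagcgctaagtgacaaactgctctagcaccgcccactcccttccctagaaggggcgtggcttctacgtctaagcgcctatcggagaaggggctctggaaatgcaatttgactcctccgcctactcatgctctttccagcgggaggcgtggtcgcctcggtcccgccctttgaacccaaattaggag
An AP-1 site (TGANTCA) was in the windows of 8.97% of all genes and an E-box (CACGTG) in those of 8.09%, and neither was found for any of the 7 genes. The heat shock core GAANNTTC was in the windows of 9.04% of all genes and was found for Hmox2. A match is a run of letters and not a shown binding site. Windows of Hmox1, Slc40a1 and Slc48a1 were not used, and sequence further upstream was not searched, so elements there could not be found.

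The values were FPKM, fragments of a gene scaled to transcript length and library size, which the authors computed for each library. The libraries held an estimated 27500000 to 39400000 fragments, read from the smallest steps of low values. HSC replicates were close: of 6430 genes averaging 10 FPKM or more, 13 were at least 2-fold apart between the vehicle libraries and 19 between the auranofin libraries. The BMDM auranofin libraries stood apart from each other, with 383 of 4245 such genes at least 2-fold apart, against 14 between the vehicle libraries. BMDM results are therefore given per library and with each auranofin library left out. The HSC libraries held the stellate markers Acta2 (956, 965, 743 and 737 FPKM in vehicle 1 and 2 and auranofin 1 and 2) and Col1a1 (1001, 1075, 927 and 973 FPKM). They also held macrophage markers, with Lyz2 at 5519, 5554, 5379 and 5440 FPKM and the Kupffer cell marker Clec4f at 58.6, 59.2, 73.5 and 69.1 FPKM. In a bulk culture, fewer cells of a type and less RNA per cell cannot be told apart, and which cells of the HSC culture carried a change was not tested. In BMDM, Clec4f was between 0 and 0.028 FPKM, Des between 0 and 0.011 FPKM and the macrophage marker Csf1r between 158 and 180 FPKM. Csf1r was between 181 and 194 FPKM in HSC. Lyz2 was lower in BMDM than in HSC, at 3743, 3625, 4279 and 3636 FPKM in the same order. The macrophage marker Adgre1 was higher in BMDM, at 359 to 418 FPKM against 103 to 111 FPKM. The tables were normalized separately. Results given for HSCs below are those of the whole culture, macrophage RNA included.

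In HSCs, 7 of the 10 genes rose with auranofin and none fell at an adjusted p under 0.05 in limma, Benjamini-Hochberg adjusted over 12149 genes. They were Hmox1, Blvrb, Slc48a1, Abcb6, Slc40a1, Ftl1 and Fth1. Over all genes tested, 1.24% were called higher and 1.09% lower. Hmox1, Blvrb, Slc48a1 and Abcb6 were also at least 1.5-fold higher with an unadjusted p under 0.05, a set that held 0.428% of all genes as higher. In 8 of the 10 genes, all but Hmox2 and Tfrc, both auranofin libraries lay above both vehicle libraries, as they did in 26.2% of all genes. The median log2 fold change of the 10 genes was 0.44, against 0.00487 over all genes tested. Fold changes are on the log2(FPKM + 1) scale, which understates changes of low genes, and n = 2 per group throughout.

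**Figure D1:**
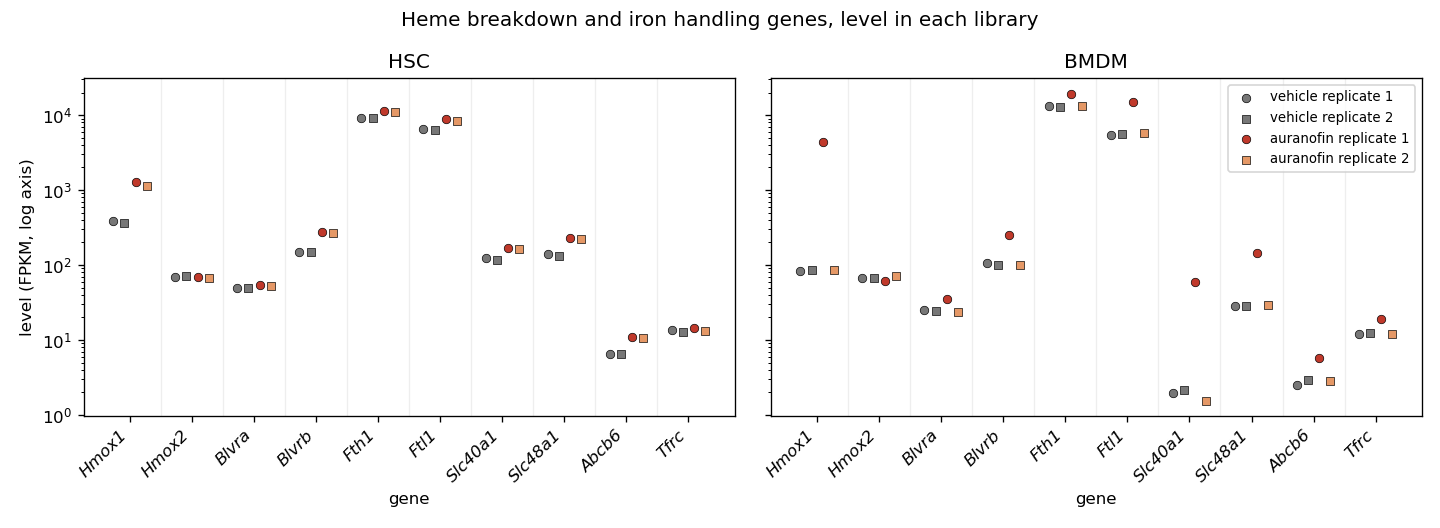
Level of each gene in each library, in FPKM on a log axis, with HSC on the left and BMDM on the right and 1 point for each of the 8 libraries. In HSC the auranofin points of Hmox1 sit near 1141 and 1297 FPKM, both above the vehicle points, while in BMDM replicate 1 of auranofin stands at 4403 FPKM and replicate 2 at 85.3 FPKM, among the vehicle libraries.

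Hmox1 (chr8:75093618-75100593), the inducible heme oxygenase, stood at 391 and 368 FPKM in the HSC vehicle libraries and at 1297 and 1141 FPKM in the auranofin libraries. Its mean rose from 380 ± 16.4 to 1219 ± 110.3 FPKM (SD, n = 2), a ratio of 3.21. The log2 fold change was 1.68 (SE 0.0674, 95% interval 1.51 to 1.84, limma adjusted p = 0.00132), and 4 genes of 12149 had a larger one. Among all genes of a library, Hmox1 was the 149th and 162nd most abundant in vehicle and the 20th in both auranofin libraries. Hmox2 (chr16:4726361-4766742), the constitutive isoenzyme, which overlaps Cdip1, was at 68.5 and 72.1 FPKM in vehicle and 69.6 and 67.9 FPKM in auranofin. These values overlapped, and the difference was -0.03 with a 95% interval of -0.13 to 0.067 on the log2 scale (limma adjusted p = 0.727). The Hmox1 share of the FPKM of both heme oxygenases was 85.1% and 83.6% in vehicle and 94.9% and 94.4% in auranofin.

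Of the biliverdin reductases, Blvrb (chr7:27447978-27465981), which also reduces flavins, was at 148 and 147 FPKM in vehicle and 277 and 267 FPKM in auranofin. The groups were well apart, and the log2 fold change was 0.88 (SE 0.0338, limma adjusted p = 0.00132). Blvra (chr2:127070629-127097084), the isoenzyme that makes most bilirubin in adults, was at 49.8 and 49.3 FPKM in vehicle and 54.9 and 51.9 FPKM in auranofin. Its log2 difference was 0.11 (95% interval 0.0055 to 0.21). Both auranofin libraries lay above both vehicle libraries, but the adjusted p was 0.261 (limma, unadjusted 0.0419), and Blvra overlaps the RefSeq gene Gm31414. Whether strand was used to separate overlapping genes is not given in the sources used here. The Blvrb share of the pair was 74.9% in both vehicle libraries and 83.4% and 83.7% in auranofin. With 2 libraries against 2 no exact permutation test of such a share can go under 0.333, so the shares are given without one.

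Slc48a1 (chr15:97784365-97792692) carries heme out of the phagolysosome. It was at 138 and 131 FPKM in vehicle and 232 and 221 FPKM in auranofin. The auranofin libraries were the higher ones, and the log2 fold change was 0.75 (SE 0.0443, limma adjusted p = 0.00295). This gene overlaps Hdac7 in RefSeq. Abcb6 (chr1:75171640-75180392), a porphyrin transporter, was expressed at a low level, 6.60 and 6.58 FPKM in vehicle and 11.0 and 10.7 FPKM in auranofin. Its log2 fold change was 0.65 (SE 0.0461, limma adjusted p = 0.00445), and its groups did not overlap.

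The iron that heme oxygenase frees is kept in ferritin, and both subunits rose by less than the enzyme. Ftl1, the light chain (chr7:45457944-45459886), was at 6512 and 6321 FPKM in vehicle and 8830 and 8417 FPKM in auranofin (log2 fold change 0.43, SE 0.0418, limma adjusted p = 0.0113). Fth1, the heavy chain with the ferroxidase site (chr19:9980600-9985111), was at 9033 and 9183 FPKM in vehicle and 11330 and 10908 FPKM in auranofin. Its log2 fold change was 0.29 (SE 0.0392, limma adjusted p = 0.0276). By level Fth1 had rank 1 and Ftl1 rank 3 in every HSC library, so quantile normalization, which gives equal ranks equal values, sets both changes to 0, and the Fth1 call was lost without trend (adjusted p = 0.0778) and in each fit with 1 library left out (adjusted p from 0.0552 to 0.108). The 2 genes together took 3.60% of all FPKM in both vehicle libraries and 4.59% and 4.45% in auranofin. The ratio of Fth1 to Ftl1 was 1.39 and 1.45 in vehicle and 1.283 and 1.296 in auranofin. Both genes have processed pseudogenes elsewhere in the genome, so their values depend on how shared fragments were assigned.

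Slc40a1 (chr1:45908070-45926532), ferroportin and the exit for iron, was at 124 and 118 FPKM in vehicle and 169 and 163 FPKM in auranofin. The log2 fold change was 0.45 (SE 0.0403, limma adjusted p = 0.00888), and the groups did not overlap. Tfrc (chr16:32608896-32632794), the entry for transferrin-bound iron, was at 13.5 and 12.9 FPKM in vehicle and 14.4 and 13.0 FPKM in auranofin. One auranofin library fell within the vehicle range, and the log2 difference was 0.049 (95% interval -0.099 to 0.20, limma adjusted p = 0.721). Slc40a1, Ftl1 and Fth1 had the smallest log2 fold changes of the called genes. Their calls were lost when genes of low value were not filtered out (adjusted p = 0.0538 for Slc40a1, 0.211 for Ftl1 and 0.367 for Fth1, in limma). Hmox1, Blvrb, Slc48a1 and Abcb6, with larger changes, kept theirs.

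**Figure D2:**
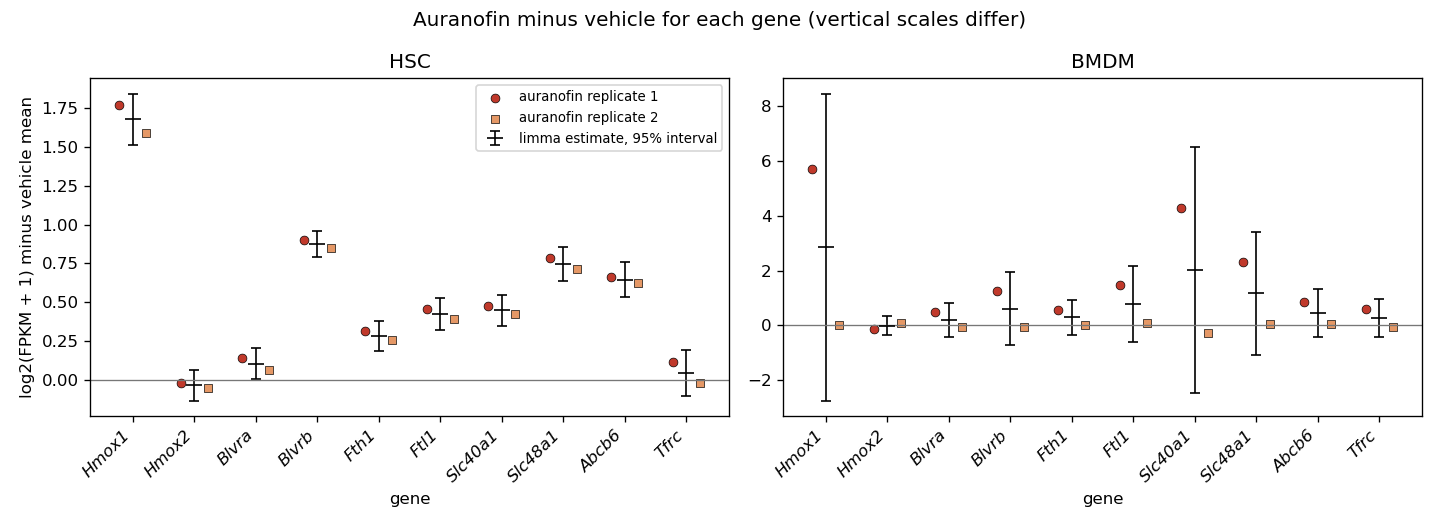
Difference of each auranofin library from the vehicle mean, in log2(FPKM + 1), with the limma estimate as a bar and its 95% interval, on a separate vertical scale for HSC and BMDM. In HSC the points of both libraries lie close together, at 1.77 and 1.58 for Hmox1, while in BMDM they lie at 5.68 and 0.010, and the intervals of all 10 genes include 0.

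Marker genes of the cell types that the HSC culture could hold were read beside these values. Of 14 tested macrophage markers 4 were higher with auranofin and 10 lower, and 1 was called higher in limma. Of 11 stellate markers 2 were higher and 9 lower, with 1 called lower. Of 10 endothelial markers 4 were higher and 6 lower, with 3 called lower. Over all genes tested, 1.24% were called higher and 1.09% lower. The summed FPKM of 15 macrophage markers was 10460 and 10620 in vehicle and 10470 and 10390 in auranofin. That of 12 stellate markers was 4076 and 4194 in vehicle and 3564 and 3664 in auranofin. Auranofin replicate 2 held more neutrophil marker RNA, 74.6 FPKM against 6.24 to 17.9 FPKM in the other 3 libraries, and more erythroid marker RNA, 14.1 FPKM against 0.551 to 0.967 FPKM. The difference of Hmox1 from the vehicle mean was larger in replicate 1 than in replicate 2, and without replicate 2 its log2 fold change was 1.77 (limma adjusted p = 0.000261). Of the 10 genes, 6 were called in each fit without 1 of the 4 libraries, the loss being Fth1. The endothelial marker sum was 329, 322, 319 and 303 FPKM, and the hepatocyte sum, nearly all of it transferrin, was 119, 125, 110.4 and 121 FPKM.

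The other genes of the pathway were read in HSCs against the same shares of all genes, 1.24% called higher and 1.09% lower. Of 11 tested genes of heme breakdown and transport outside the 10, 2 rose and none fell. Por, the reductase that supplies heme oxygenase with electrons, rose from 106 and 108 FPKM to 133 and 131 FPKM (log2 fold change 0.30, limma adjusted p = 0.0159). Abcc1, an exporter of glutathione conjugates, rose from 31.7 and 30.8 FPKM to 49.4 and 46.0 FPKM (log2 fold change 0.59, limma adjusted p = 0.00606). Flvcr1, a heme exporter, was not analysed here. Of 15 tested genes of heme synthesis none was called in either direction at an adjusted p under 0.05 in limma. An unadjusted p under 0.05 was reached by 2 of the 15, beside 2161 of all 12149 genes tested. Alas1, the rate-limiting enzyme, was 1 of the 2 synthesis genes. It was at 81.8 and 86.5 FPKM in vehicle and 92.5 and 95.2 FPKM in auranofin (limma adjusted p = 0.138). The median log2 fold change of the synthesis genes was 0.0232.

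Of 14 tested genes of iron uptake, 1 rose and none fell, beside 1.24% and 1.09% of all genes. It was Slc11a1, a metal transporter of the phagosome, at 76.9 and 75.4 FPKM in vehicle and 118 and 114 FPKM in auranofin (log2 fold change 0.60, limma adjusted p = 0.00287). None of 8 tested genes of iron storage and chaperoning outside ferritin was called in limma, with 2 at an unadjusted p under 0.05. None of 4 of iron export was called, with 1 at an unadjusted p under 0.05. Over all genes tested, 2161 of 12149 had an unadjusted p under 0.05. Of the iron-regulatory list none was called either, and no gene of it had an unadjusted p under 0.05. It holds Aco1 and Ireb2, which bind IREs. Aco1 was at 27.0 and 27.1 FPKM in vehicle and 26.4 and 25.3 FPKM in auranofin (limma adjusted p = 0.472), and Ireb2 was at 15.3 and 14.6 FPKM and at 14.3 and 14.9 FPKM (limma adjusted p = 0.792). The 3 tested genes of that list had a median log2 fold change of -0.0294. The medians were -0.0147 for the other genes of heme breakdown and transport, 0.000427 for uptake, 0.0558 for storage and 0.0121 for export, against 0.00487 over all genes tested.

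Among 11 tested regulators of heme and iron genes, 1 fell and none rose, beside 1.09% of all genes called lower and 1.24% higher. An unadjusted p under 0.05 in limma was reached by 4 of the 11, Nfe2l2 in the lower direction and Mafg, Spic and Keap1 in the higher. Over all genes tested, 2161 of 12149 reached it. Nfe2l2, which encodes NRF2, the activator of antioxidant response elements, was at 123 and 119 FPKM in vehicle and 102 and 99.0 FPKM in auranofin (log2 fold change -0.26, limma adjusted p = 0.0289). Keap1, which targets NRF2 for degradation, was at 25.3 and 26.1 FPKM in vehicle and 29.1 and 27.5 FPKM in auranofin (limma adjusted p = 0.207). Bach1, the heme-sensing repressor of Hmox1, was at 12.8 and 12.4 FPKM and at 12.6 and 13.1 FPKM (limma adjusted p = 0.808). Spic, the transcription factor of iron-recycling macrophages, was at 11.2 and 10.1 FPKM in vehicle and 17.1 and 13.2 FPKM in auranofin. Both auranofin libraries of Spic were the higher ones, but the spread left an adjusted p of 0.13 (limma).

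**Figure D3:**
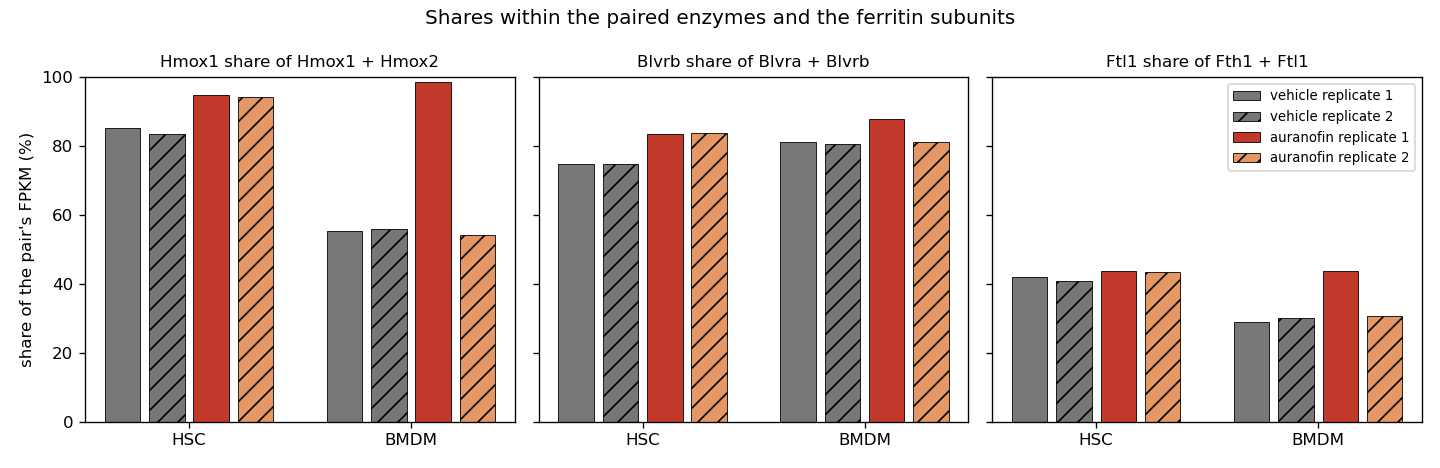
Share of one gene in the summed FPKM of its pair, in percent, with 1 bar for each library and cell type. Hmox1 takes 55.2% and 56.0% of the heme oxygenase FPKM in the BMDM vehicle libraries, 98.6% in auranofin replicate 1 and 54.2% in replicate 2, while in HSC both auranofin libraries are above vehicle.

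In BMDM, auranofin replicate 1 was far above vehicle in most of these genes and auranofin replicate 2 was at the vehicle level. Whether the library labelled auranofin replicate 2 was exposed as its label says was not tested, so every BMDM mean and estimate over both libraries rests on that label. None of the 10 genes was called at an adjusted p under 0.05 in limma, and none had an unadjusted p under 0.05. Over all 9232 genes tested, 0.0108% were called higher, and 0.0867% were at least 1.5-fold higher with an unadjusted p under 0.05. An unadjusted p under 0.05 at any fold change was reached by 49 of the 9232. Replicate 1 was at least 1.5-fold above the vehicle mean in 7 of the 10 genes, as it was in 15.2% of all genes, and at least 1.5-fold below it in none of the 10, against 8.07% of all genes. Replicate 2 was at least 1.5-fold above in none, against 0.379% of all genes. The median difference of the 10 genes from the vehicle mean was 1.06 on the log2 scale in replicate 1, against 0.176 over all genes, and 0.0166 in replicate 2, against 0.00494. In Ftl1 and Slc48a1 both auranofin libraries lay above both vehicle libraries, as they did in 26.3% of all genes.

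BMDM Hmox1 was at 82.7 and 86.7 FPKM in vehicle, 4403 FPKM in auranofin replicate 1 and 85.3 FPKM in replicate 2. It was 52.0-fold above the vehicle mean in the first and 1.01-fold in the second. The limma estimate over both was 2.85 (95% interval -2.73 to 8.43, adjusted p = 0.721). Without replicate 2 it was 5.68 (adjusted p = 8.92e-06), and without replicate 1 it was 0.010 (adjusted p = 0.959). With 1 auranofin library the fit assumes that it varies like the vehicle libraries. Hmox1 was the 8th most abundant transcript of replicate 1 and stood between ranks 842 and 881 in the other 3 libraries. Hmox2 was at 67.1 and 68.0 FPKM in vehicle and 62.1 and 72.0 FPKM in auranofin, with a log2 difference of -0.015 (95% interval -0.36 to 0.33, limma adjusted p = 0.958).

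Slc40a1 was nearly silent in BMDM, at 1.95 and 2.18 FPKM in vehicle and 1.56 FPKM in auranofin replicate 2, and at 58.6 FPKM in replicate 1. These values stand for an estimated 196, 202, 181 and 6900 fragments. In replicate 1 it was 28.4-fold above the vehicle mean in FPKM. On the log2(FPKM + 1) scale the difference was 4.28, and 5 tested genes had a larger one in that library. The vehicle level of Slc40a1 was above that of 16.2% of tested BMDM genes, against 95.7% of tested genes in the HSC culture, which also held macrophage markers. Such positions are compared here because the tables were normalized separately. Slc48a1 was at 28.1 and 28.4 FPKM in vehicle, 143 FPKM in replicate 1 and 29.2 FPKM in replicate 2. Abcb6 was at 2.52 and 2.89 FPKM in vehicle, 5.70 FPKM in replicate 1 and 2.83 FPKM in replicate 2.

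Both ferritin subunits were high in replicate 1 of BMDM, Ftl1 more so than Fth1. Ftl1 was at 5377 and 5522 FPKM in vehicle, 15024 FPKM in replicate 1 and 5854 FPKM in replicate 2. Fth1 was at 13243 and 12779 FPKM in vehicle, 19271 FPKM in replicate 1 and 13220 FPKM in replicate 2. The ratio of Fth1 to Ftl1 was 2.46 and 2.31 in vehicle, 1.28 in replicate 1 and 2.26 in replicate 2. Replicate 1 thus had a lower ratio than the other 3 BMDM libraries. In HSC the ratio was below that of BMDM vehicle in vehicle (1.39 and 1.45) as well as in auranofin (1.283 and 1.296). The 2 subunits together took 3.96% and 3.92% of all FPKM in vehicle, 7.06% in replicate 1 and 3.97% in replicate 2.

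Blvrb was at 107 and 101 FPKM in vehicle, 251 FPKM in replicate 1 and 100.3 FPKM in replicate 2. Blvra was at 25.0 and 24.3 FPKM in vehicle, 35.1 FPKM in replicate 1 and 23.5 FPKM in replicate 2. Tfrc was at 12.1 and 12.3 FPKM in vehicle, 19.0 FPKM in replicate 1 and 11.9 FPKM in replicate 2. In all 3 genes the second auranofin library was below both vehicle libraries and the first was above them. Without replicate 2, 9 of the 10 genes were called higher (all but Hmox2), in a fit that called 45.2% of all genes higher, and 7 were at least 1.5-fold higher with an unadjusted p under 0.05, against 15.2% of all genes. Without replicate 1, none of the 10 was called. The log2 fold changes of the 9 genes ran from 0.49 (Blvra) to 5.68 (Hmox1) without replicate 2, while those of all 10 ran from -0.26 (Slc40a1) to 0.10 (Ftl1) without replicate 1.

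The other genes of the pathway were set beside the vehicle mean in each BMDM auranofin library. No gene of the 7 lists was called in limma, and none had an unadjusted p under 0.05. In replicate 1, 7 of 10 tested regulators were at least 1.5-fold above the vehicle mean, as were 3 of 13 genes of heme synthesis, 2 of 9 of heme breakdown and transport 1 of 10 of uptake, 1 of 7 of storage and 1 of 3 of export. Over all genes that share was 15.2%. In replicate 2 no gene of these lists was, and Fech, the enzyme that inserts iron into heme, was the 1 gene at least 1.5-fold below it, at 3.26 FPKM against 5.60 and 5.51 FPKM in vehicle. Fech was chosen for mention after its values were seen. It also differed between the HSC vehicle libraries, at 27.4 and 15.6 FPKM. The share of all genes that far below the vehicle mean in BMDM replicate 2 was not counted. The median difference in replicate 1 was 0.399 for heme breakdown and transport, 0.309 for synthesis, 0.215 for uptake, 0.118 for storage, 0.583 for the 3 export genes, 0.289 for the iron-regulatory list and 1.03 for the regulators, against 0.176 over all genes tested.

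Maff and Mafg, small MAF partners of NRF2 and BACH1, were at 13.8 and 14.9 FPKM and at 10.9 and 9.83 FPKM in vehicle. They reached 62.4 and 32.4 FPKM in replicate 1, and were at 15.2 and 9.84 FPKM in replicate 2. Both genes were thus high in 1 of the 4 BMDM libraries. Nfe2l2 was at 32.7 and 33.4 FPKM in vehicle, 82.2 FPKM in replicate 1 and 29.1 FPKM in replicate 2. Bach1 was at 15.2 FPKM in both vehicle libraries, 34.5 FPKM in replicate 1 and 13.8 FPKM in replicate 2. The activator and the repressor of the antioxidant response were both high in replicate 1. Por was at 75.2 and 74.9 FPKM in vehicle, 213 FPKM in replicate 1 and 77.5 FPKM in replicate 2. Spic was at 7.64 and 7.94 FPKM in vehicle, 19.1 FPKM in replicate 1 and 8.40 FPKM in replicate 2. All 6 were high in replicate 1 and near vehicle in replicate 2.

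Other genes were lower in replicate 1. Cp, the ferroxidase ceruloplasmin that works with ferroportin, was at 12.1 FPKM in both vehicle libraries, 3.99 FPKM in replicate 1 and 11.0 FPKM in replicate 2. Lcn2, which binds iron-carrying siderophores, was at 108 and 100.3 FPKM in vehicle, 72.3 FPKM in replicate 1 and 108 FPKM in replicate 2. Both were near or within the vehicle range in replicate 2. Keap1 was at 40.7 and 44.0 FPKM in vehicle, 31.1 FPKM in replicate 1 and 43.2 FPKM in replicate 2. Abcb10, a mitochondrial transporter of heme synthesis, was at 2.83 and 2.81 FPKM, 1.94 FPKM and 2.84 FPKM in the same order.

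Alas1 and Ireb2 stood at similar levels in both BMDM auranofin libraries. Alas1 was at 69.5 and 73.6 FPKM in vehicle and 86.1 and 84.7 FPKM in auranofin, so both auranofin libraries were above vehicle (log2 difference 0.25, limma adjusted p = 0.721). Aco1 was at 6.58 and 6.23 FPKM in vehicle, 9.73 FPKM in replicate 1 and 6.68 FPKM in replicate 2. Ireb2 was at 10.2 and 10.5 FPKM in vehicle and 9.13 and 9.49 FPKM in auranofin. Aco1 was highest in replicate 1.

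The marker lists were read in BMDM as well. The macrophage sum was 9824 and 9688 FPKM in vehicle, 10710 FPKM in replicate 1 and 9923 FPKM in replicate 2. The endothelial sum was 105 and 109 FPKM in vehicle, 57.2 FPKM in replicate 1 and 92.0 FPKM in replicate 2. Most of this sum was Fcgr2b, an Fc receptor that macrophages also express, at 87.1 and 91.7 FPKM in vehicle, 44.5 FPKM in replicate 1 and 75.5 FPKM in replicate 2. The stellate sum, nearly all of it vimentin, was 2929, 2891, 3032 and 3000 FPKM, and the hepatocyte sum, mostly transferrin, was 89.8, 95.8, 108 and 89.2 FPKM. The neutrophil sum was 201 and 206 FPKM in vehicle and 270.2 and 270.3 FPKM in auranofin, and the erythroid sum was 10.4 FPKM in vehicle replicate 1 and 3.91 to 4.14 FPKM in the other 3 libraries. Of the 7 erythroid markers in the table, 1 was listed at 0 in all 4 libraries. The part of these cells in the difference between the auranofin libraries was not tested.

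**Figure D4:**
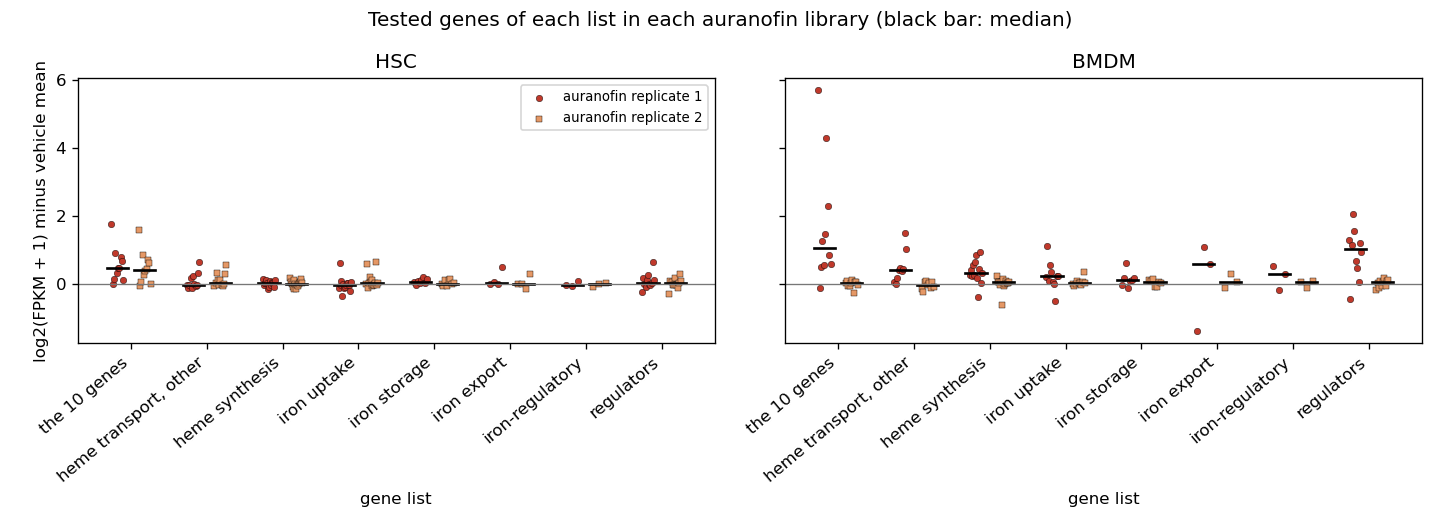
Each point is a tested gene of a list, placed at its log2(FPKM + 1) difference from the vehicle mean in auranofin replicate 1 (circles) or 2 (squares), with the list's median as a black bar. In HSC both libraries put the median of the 10 genes at 0.467 and 0.408, while in BMDM replicate 1 puts it at 1.06 and that of the regulators at 1.03, and replicate 2 puts them at 0.0166 and 0.0418.

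Set side by side, Hmox1, Blvrb, Slc48a1 and Abcb6 were at least 1.5-fold above the vehicle mean in both HSC auranofin libraries and in BMDM replicate 1. In BMDM replicate 1 alone, 15.2% of all genes were that far above it. The share of all genes that were so in every one of these libraries was not counted. In HSC replicate 1 and BMDM replicate 1, the folds over the vehicle mean were 3.41 and 52.0 for Hmox1, 1.87 and 2.41 for Blvrb, 1.73 and 5.07 for Slc48a1 and 1.67 and 2.11 for Abcb6. In BMDM replicate 2 the folds of the same genes were 1.01, 0.963, 1.03 and 1.05, and in HSC replicate 2 they were 3.003, 1.81, 1.65 and 1.63. Dose, exposure time, cell type and LPS with ATP all differ between the experiments, so no test of the difference was made. Hmox2 lay between 0.919 and 1.07 times its vehicle mean in all 4 auranofin libraries.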

How the data were processed

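Libraries of 4 HSC and 4 BMDM samples were prepared with a kit that keeps strand. FPKM values deposited by the authors, 1 table per cell type, refer to RefSeq transcripts on mm10. The submitters' processing notes name CASAVA, FastQC 0.11.7, Trimmomatic 0.38, HISAT2 2.1.0 and StringTie 1.3.4d, without their settings. No counts were given, so count tests were not used, and depth was estimated from values under 0.2 FPKM that lie on steps of 1 fragment. Of the low values read in each library, 8.9% to 13.3% lay on the step used, so depths and fragment numbers are approximate.

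Each table was fitted alone. Values were transformed to log2(FPKM + 1), genes averaging 1 FPKM or more were kept (12149 in HSC and 9232 in BMDM), and limma (lmFit, eBayes with trend) compared auranofin with vehicle, without a replicate term. A gene was called at a Benjamini-Hochberg adjusted p under 0.05 over all genes tested. A second rule, at least 1.5-fold with an unadjusted p under 0.05, uses the thresholds printed in the key of the study's BMDM volume plot. Intervals are 95%. The fit was also run on simulated data with known changes, the outcome of which is not given here.

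The 10 genes, the 7 pathway lists (79 genes) and the 6 marker lists were chosen with earlier results of these data known. Named beside the 10 were pathway genes past either rule, the 4 genes each way with the largest BMDM auranofin replicate 1 difference, and Nfe2l2, Keap1, Bach1, Aco1, Ireb2, Alas1, Flvcr1 and Spic. Overlaps were read from RefSeq, IRE sites from GENCODE M21 and promoters from RefSeq (GRCm38.p6). Promoter windows of Hmox1, Slc40a1 and Slc48a1 were not used here. Alternatives were a pseudocount of 0.1, no filter, a mean of at least 5 FPKM, quantile normalization, rescaling to TPM, eBayes without trend, centring on the median, a replicate block, no moderation, a threshold of 2-fold and each library left out. Software was limma 3.58.1 in R 4.3.3, and pandas 2.3.3, numpy 2.4.6 and matplotlib 3.10.9 in Python 3.11.15.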

Additional observations from a re-analysis of the deposited data

Results flagged for a closer look

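In Aco1, the cytosolic aconitase that doubles as iron-regulatory protein, every HSC auranofin library lay below the vehicle mean and every BMDM auranofin library above it. The log2 fold changes were -0.0627 in HSC and 0.293 in BMDM, and whether they differ was not tested. In Cp, the ferroxidase ceruloplasmin, the directions from the vehicle mean were the opposite, with 0.0048 in HSC and -0.762 in BMDM. In HSC, both auranofin values of Cp (5.46 FPKM) lay between the vehicle values of 5.51 and 5.36 FPKM. In BMDM, replicate 1 was at -1.40 and replicate 2 at -0.13 from the vehicle mean. Whether the Cp changes differ was not tested either. None of the 4 log2 fold changes passed an adjusted p under 0.05 in limma.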

How the results depend on the processing

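In HSC, the count of 7 genes called fell to 4 with no filter on low values, where 18645 genes were adjusted for and Fth1, Ftl1 and Slc40a1 were lost, and to 0 with no moderation, where Hmox1 kept its log2 fold change of 1.68 at an adjusted p of 0.281 (limma's linear model without eBayes). With no moderation the spread of each gene is taken from its own 4 libraries alone, and 0 of all 12149 genes were called in either direction. The count was 5 to 7 in the other settings and 6 in each fit without 1 library. The 4 genes past 1.5-fold became 1 at 2-fold. Over all genes, the 151 higher and 132 lower calls became 40 and 9 with no filter, 85 and 44 without trend, 0 each with no moderation, 279 and 238 without vehicle replicate 1, and 96 and 83 without auranofin replicate 1. The log2 fold change of Hmox1 was 1.58 to 1.77 over the fits without 1 library. In BMDM over those fits, the genes called ranged from 0 to 9, those past 1.5-fold from 0 to 7, and Hmox1 from 0.010 to 5.68. The high values come from the fit without auranofin replicate 2. The other BMDM settings left both counts at 0.

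Leaving out 1 library turned the sign of some genes that were not called. In HSC, Hmox2 ranged from -0.0677 to 0.0041 and Tfrc from -0.0189 to 0.116. In BMDM, Hmox2 ranged from -0.12 to 0.0904, Blvra from -0.0696 to 0.491, Blvrb from -0.0529 to 1.26, Slc40a1 from -0.26 to 4.28 and Tfrc from -0.0375 to 0.597. No other setting turned a sign, although quantile normalization set Fth1 and Ftl1 in HSC to 0 because their ranks were equal.

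No label says what a shared replicate number stands for, so the numbers were not taken to pair libraries. Deviations of same-numbered libraries correlated at 0.109 in HSC and -0.0551 in BMDM. With the replicate block, 7 HSC genes and 0 BMDM genes were called, and the HSC Hmox1 change was 1.68 (limma adjusted p = 0.00124). Precision is limited by 2 libraries per group, and in BMDM Slc40a1 by an estimated 181 to 202 fragments outside replicate 1.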
